A study of Mus musculus with 2 samples.

Results

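Amino acid transporters were examined in mouse 5cc7 T cell blasts, chosen as every probe set with 1 annotated gene symbol beginning Slc1a, Slc3a, Slc7a, Slc36a, Slc38a or Slc43a. The choice was by name and used no measured value. It gave 89 probe sets for 42 of the 18193 named genes on the arrays. Of these 42 genes, 40 encode members of the carrier families, and the other 2, Slc7a6os and Slc36a1os, are genes named for lying opposite a carrier gene and share only the beginning of its symbol. One further probe set, shared by Slc1a2 and another symbol, was left out.

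The data comprised 1 group of 2 Affymetrix mouse expression arrays, called set 1 and set 2. The cells carry a T cell receptor specific for a moth cytochrome c peptide, were stimulated in vitro with that peptide (MCC in the labels) and were taken on day 5. The labels name no strain, age, culture medium or cytokine. Both arrays are described as experiment 1 of 2, and the labels do not say whether each received RNA of its own culture. The SDs below may therefore measure technical spread within 1 experiment. No resting, unstimulated or earlier sample belongs to the group, and no change on stimulation can be read from these values.

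Dividing lymphocytes build protein quickly and take up glutamine, leucine and other amino acids through carriers of the plasma membrane. Antigen receptor stimulation is known to raise several of them in T cells, among them the leucine carrier Slc7a5, its partner Slc3a2 and the glutamine carrier Slc1a5. Other carriers of the same families sit in the lysosome, where they release amino acids or report them to the growth kinase mTORC1. Paralogues of these families carry overlapping sets of amino acids, so a cell type can be described by which of them it expresses.

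Values are deposited intensities on a linear scale, given for set 1 and then set 2, with the mean ± SD of the 2 arrays (n = 2) where stated. The background bound was 54.6 on set 1 and 57.9 on set 2, the 95th percentile of probe sets for liver, eye, pancreas and kidney genes. "Above background" or "called" means over the bound on both arrays, for a gene by 1 or more of its probe sets. Probes differ in how strongly they bind, so paralogues are compared by this call and not by the ratio of their intensities. The call depends on probe strength too, and probe sets of 1 gene can fall on both sides of the bound. Opposite calls of paralogues therefore do not by themselves show different transcript levels. Some probe sets of a gene share a source sequence in the annotation and are not independent measurements.

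Of the 42 genes 16 were above background (38.1%), all 16 of them carriers, so that 40.0% of the 40 carrier genes were. Across all named genes the share was 46.8%. Of the 89 probe sets 29 were above background (32.6%), against 37.5% of all probe sets. Both shares of the members lay below those of the arrays as a whole, and these differences were not tested. By family the counts were 6 of 9 Slc38 genes and 2 of 3 Slc43 genes, against 1 of 7 Slc1 genes and 4 of 16 Slc7 genes. In Slc3 the count was 1 of 2 and in Slc36 it was 2 of 5. These counts go by the beginning of the symbol. They include Slc7a6os in Slc7 and Slc36a1os in Slc36, which are not carriers and were not called. The differences between families were not tested either.

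**Figure D1:**
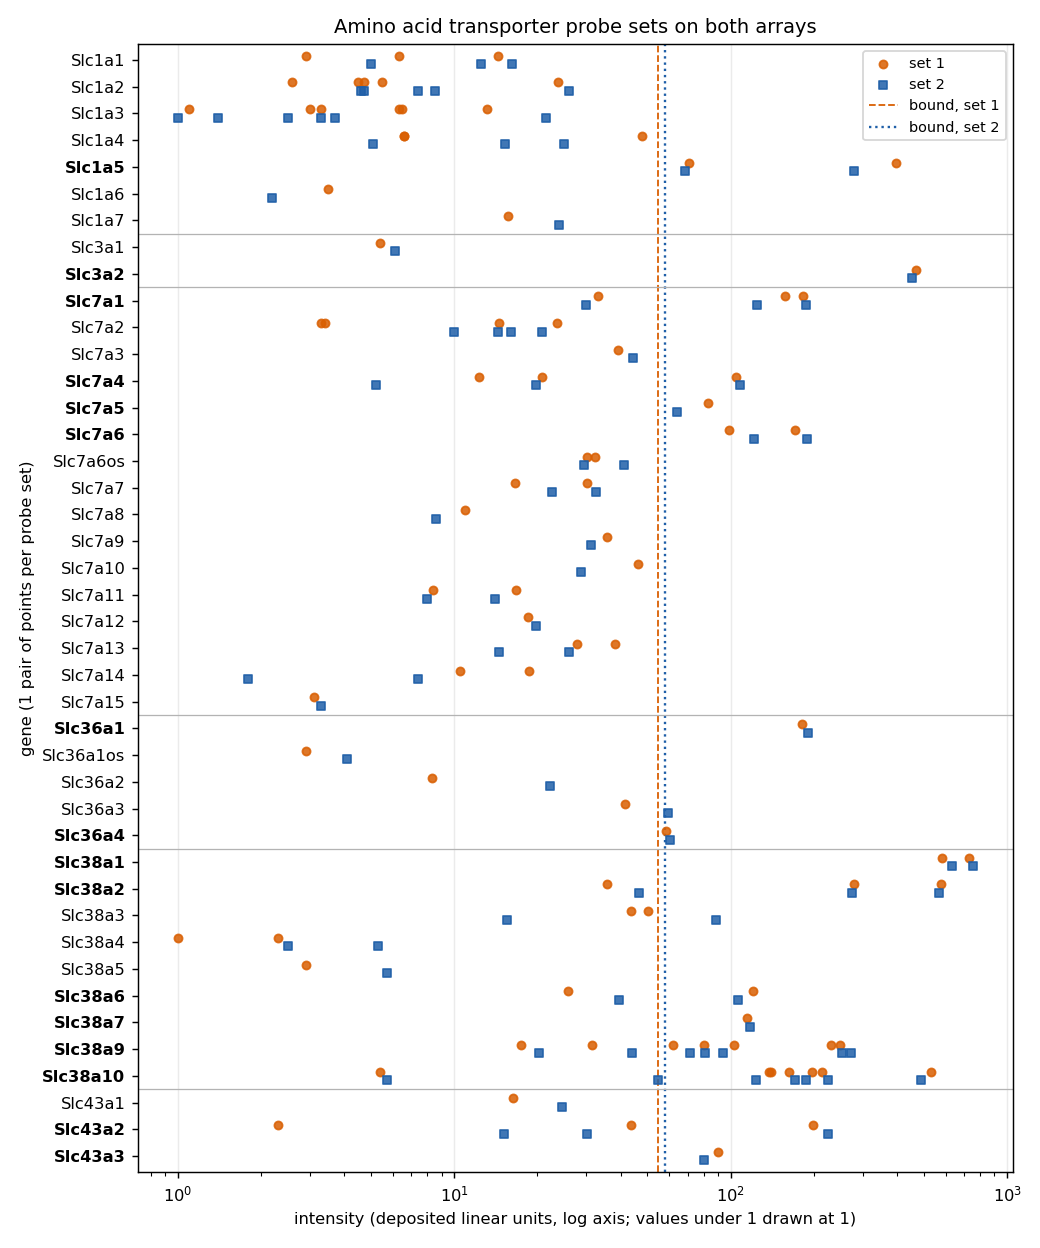
Intensity of every member probe set on set 1 (circles) and set 2 (squares), 1 row per gene, on a log axis, with the background bound of each array as a vertical line and genes above background in bold. The 16 genes in bold have at least 1 probe set to the right of both lines, and 57 of the 89 probe sets lie below the bound on both arrays.

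The T cell label was borne out by its markers, with 6 of 6 measured T cell genes above background, Cd3d at 4882.9 and 4459.9 and Cd4 at 1186.1 and 1051.4. Of 5 B cell genes 4 were above background, with summed intensities of 860.9 and 818.4 and Ms4a1 at 389.7 and 365.1, while Pax5 was not. Of 7 macrophage genes 1 was, Csf1r at 57.3 and 146.7, with sums of 238.1 and 403.5. None of the dendritic cell (5), granulocyte and mast cell (6), erythroid (3) and NK cell (3) markers was above background, and 2 of 6 stromal, endothelial and epithelial markers were, Epcam and Kdr. The part of other cells in the transporter values was not tested. In bulk RNA, fewer cells of a type and less RNA per cell cannot be told apart. Among a second list of off-tissue genes 7 of 45 (15.6%) exceeded the bound. Mbp was at a mean of 493.5 on the brightest of its 8 probe sets, of which 2 were called, and Tg at 431.6. These intensities are in the range of called members such as Slc3a2 and Slc1a5. A call above the bound is therefore not taken by itself to show expression in T cells, near the bound or well over it. Silence of the listed off-tissue genes in T cells was assumed and not tested.

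The heavy chains were divided. Slc3a2 encodes the CD98 heavy chain, a glycoprotein that carries several Slc7 light chains to the cell surface. It was at 468.5 and 451.7 (460.1 ± 11.9), far above the bound on both arrays. Slc3a1, the heavy chain of kidney and intestine that serves cystine and dibasic amino acid uptake, was at 5.4 and 6.1 and not above background. Each has 1 probe set.

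Of the 10 light chain genes, which encode the transporting subunits, 2 were above background. Slc7a6, the y+LAT2 chain that exchanges arginine for neutral amino acids and glutamine, was at 171.4 and 188.8 on one probe set and at 98.6 and 121.1 on the other. Both gave the same call, but they are annotated to the same source sequence and are not independent. Slc7a5, the LAT1 chain that imports leucine, phenylalanine and other large neutral amino acids, was at 83.0 and 64.0 (73.5 ± 13.4) on its single probe set. It cleared the bound on both arrays by a small margin, and the call was lost with the 99th percentile of the same off-tissue probe sets and with the bound of the second off-tissue list. A single probe set cannot show whether the transcript is scarce or the probes are weak.

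The remaining light chains stayed under the bound on both arrays. Slc7a7, the y+LAT1 paralogue of Slc7a6, was at 30.3 and 22.5 on one probe set and at 16.6 and 32.7 on the other. Slc7a8, the LAT2 paralogue of Slc7a5, was at 10.9 and 8.6. These 2 therefore gave the opposite call to their paralogues, and all 4 proteins can bind the CD98 heavy chain. The contrast of Slc7a5 with Slc7a8 rests on 1 probe set each and was absent under the 2 bounds at which Slc7a5 lost its call. Slc7a6 kept its call under all 9 alternatives. Slc7a11, the cystine and glutamate exchanger xCT, was at 16.7 and 14.1 and, on its other probe set, at 8.4 and 8.0.

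Slc7a10, which carries small neutral amino acids in brain, was at 46.3 and 28.8. Slc7a9, the partner of Slc3a1, was at 35.6 and 31.3, so neither chain of that kidney transporter was above background. Slc7a12 was at 18.5 and 19.8, Slc7a15 at 3.1 and 3.3, and the 2 probe sets of Slc7a13 at 38.2 and 14.5 and at 27.9 and 26.0. All 5 genes were called the same way on both arrays, below the bound.

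Among the 5 genes of the cationic carrier branch, Slc7a1 was above background. It encodes CAT1, the widely expressed importer of arginine and lysine, and measured 182.1 and 188.0 on one probe set and 157.5 and 124.6 on another. Both of these probe sets are annotated to the same source sequence. The remaining probe set of Slc7a1, annotated to another, was at 33.1 and 30.0, under the bound. Its paralogue Slc7a2, the CAT2 importer known from activated macrophages and liver, had 4 probe sets with means between 6.7 and 22.2, and none was above background. Slc7a3, which is best known from brain, was at 39.0 and 44.5.

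Slc7a4, a relative for which transport activity is less established, was at 104.4 and 108.5 on 1 of its 3 probe sets. The other probe sets of Slc7a4 were at 12.3 and 19.8 and at 20.8 and 5.2. Its call thus rested on 1 of 3 probe sets and was lost with the 99th percentile bound and with the median over the probe sets. Slc7a14 was at 18.7 and 7.4 and at 10.5 and 1.8. In this branch Slc7a1 was thus the established arginine carrier above background, and its call held under all 9 alternatives.

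In the Slc1 family the neutral carrier Slc1a5 was the one member above background. It encodes ASCT2, which exchanges glutamine and other small neutral amino acids. Its probe sets were at 397.9 and 279.1 (338.5 ± 84.0) and at 70.7 and 68.4, and both exceeded the bound. Slc1a4, the ASCT1 paralogue that carries alanine, serine, cysteine and threonine, was at 47.9 and 24.9 on the brightest of its 3 probe sets, and its other probe sets were at 6.6 and 5.1 and at 6.6 and 15.3.

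The 5 glutamate transporter genes, which clear glutamate in the nervous system and other tissues, were not above background on any of their 16 probe sets. Slc1a1 (EAAC1) reached 14.4 and 16.2 and Slc1a3 (GLAST) 13.1 and 21.5 on their brightest probe sets. Slc1a2 (GLT-1) was at 2.6 and 26.1 on one probe set and at 23.8 and 4.6 on another, intensities that differed widely between the arrays but stayed under the bound on each. Slc1a6 was at 3.5 and 2.2 and Slc1a7 at 15.6 and 24.0. No probe set of this branch exceeded the bound under any of the 9 alternatives tried.

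The Slc38 family, sodium-coupled carriers of small neutral amino acids and glutamine, gave the most calls. Its system A members import alanine, serine and glutamine. Slc38a1 (SNAT1) was at 725.2 and 754.3 (739.8 ± 20.6) on one probe set and at 579.6 and 631.6 on the other. Slc38a2 (SNAT2), which amino acid shortage is known to induce, was at 575.9 and 567.4 (571.7 ± 6.01) on one probe set and at 279.6 and 273.7 on a second, while its remaining probe set was at 35.8 and 46.5. The system A paralogue Slc38a4, known from liver and placenta, was at 0.6 and 5.3 and at 2.3 and 2.5. So 2 of 3 system A genes were called, on 4 of 7 probe sets.

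System N genes, whose carriers move glutamine, asparagine and histidine in either direction, were not called. Slc38a5 was at 2.9 and 5.7. Slc38a3, prominent in liver, kidney and brain, was at 50.3 and 88.3, above the bound on set 2 alone, and its second probe set was at 43.6 and 15.5. The Slc38a3 call depended on the bound: the gene was above background with the 90th percentile and with the median of all probe sets.

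The other 4 Slc38 genes were each above background on at least 1 probe set. Slc38a9, the lysosomal carrier that reports arginine to mTORC1, was measured by 7 probe sets, of which 5 were above background, at 248.4 and 273.3, 230.4 and 252.5, 103.2 and 93.8, 79.8 and 80.7, and 62.1 and 71.0. The 2 remaining ones were at 31.5 and 44.0 and at 17.4 and 20.2. Slc38a7, which exports glutamine and asparagine from lysosomes, was at 114.5 and 117.2 on its single probe set.

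Slc38a10, a less studied relative, had 5 of 7 probe sets above background, with the brightest at 529.9 and 486.9 (508.4 ± 30.4). Another, an x_at set, whose probes may also bind other transcripts, was at 138.2 and 54.4 and exceeded the bound on set 1 alone. The called Slc38a10 set at 140.4 and 123.6 and the Slc38a9 set at 79.8 and 80.7 are x_at sets too. The Slc38a1 set at 579.6 and 631.6 is an s_at set, with the same limit. With x_at and s_at sets left out, 16 member genes were called. One Slc38a10 probe set was at 5.4 and 5.7. Slc38a6 was at 120.1 and 106.3 on one probe set and at 25.7 and 39.4 on the other. The calls of Slc38a6 and Slc38a7 were lost with the 99th percentile bound, and those of Slc38a9 and Slc38a10 held under every alternative tried.

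Carriers of the Slc36 family, several of them coupled to protons, move neutral amino acids out of lysosomes and across the plasma membrane. Slc36a1 (PAT1), the broadly expressed lysosomal member, was at 181.8 and 191.1. Slc36a4 (PAT4) was at 58.6 and 60.5, the call nearest to the bound among all members, and was lost with the 99th percentile bound and with that of the second off-tissue list. Slc36a2 (PAT2) was at 8.3 and 22.3. Slc36a3, known from testis, was at 41.5 and 59.5, over the bound on set 2 alone. Each of these has 1 probe set, so no second measurement is at hand.

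Slc43 genes encode carriers of large neutral amino acids that need no sodium and no heavy chain. Slc43a2 (LAT4) was at 199.2 and 225.6 on 1 of its 3 probe sets, and its other probe sets were at 43.6 and 30.1 and at 2.3 and 15.2. Its paralogue Slc43a1 (LAT3) was at 16.3 and 24.5. Slc43a3 was at 89.7 and 80.0 and above background, a call lost with the 99th percentile bound and with that of the second off-tissue list. The human counterpart of Slc43a3 is known to carry purine bases rather than amino acids, so its call adds no amino acid carrier. For Slc43a2 the call was lost when the median over the probe sets gave the level.

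Both symbols that match by their beginning alone were below the bound. Slc7a6os, the neighbour of Slc7a6, was at 32.2 and 41.0 and at 30.3 and 29.4, and Slc36a1os was at 2.9 and 4.1. The calls of Slc7a6 and Slc36a1 were thus not shared by the genes that lie opposite them.

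The members nearest to the bound were few. The 3 called genes closest to it were Slc36a4, Slc7a5 and Slc43a3, whose lower ratio of intensity to bound over the 2 arrays was 1.04, 1.10 and 1.38. On the other side stood Slc38a3 at 0.921, Slc36a3 at 0.760 and Slc7a3 at 0.714. Of the 10 called genes with more than 1 probe set, 3 had every probe set above background (Slc1a5, Slc38a1 and Slc7a6), or 30.0%. Across all genes on the arrays with several probe sets and a call, the same held for 36.7% of 5629.

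The arrays matched closely for the called members. None of the 29 member probe sets above background differed by more than 1.5-fold after centring, where 2.71% of all probe sets above background did. Among so few probe sets a count of 0 lies near that share and does not set the members apart. The median difference, log2 of set 1 minus log2 of set 2, was -0.01 after centring and -0.03 before it. By the centred difference, 14 probe sets were higher on set 1 and 15 on set 2. Differences given below are centred too. The SD of the difference was 0.18 among members and 0.24 over all probe sets above background.

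The largest difference among called members belonged to the Slc1a5 probe set at 397.9 and 279.1. It was 0.54 on the log2 scale, and 1.59% of the 3135 called probe sets with a mean intensity between 256 and 512 differed by more. The second Slc1a5 probe set differed by 0.07. Slc7a5 differed by 0.40 and Slc7a1, on the probe set at 157.5 and 124.6, by 0.36, while 15.7% and 10.9% of probe sets of like intensity differed by more. For comparison, Slc3a2 differed by 0.08 and Slc38a2 by 0.05 on its brightest probe set. A single difference between 2 arrays does not measure how exactly the level of a gene is known.

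**Figure D2:**
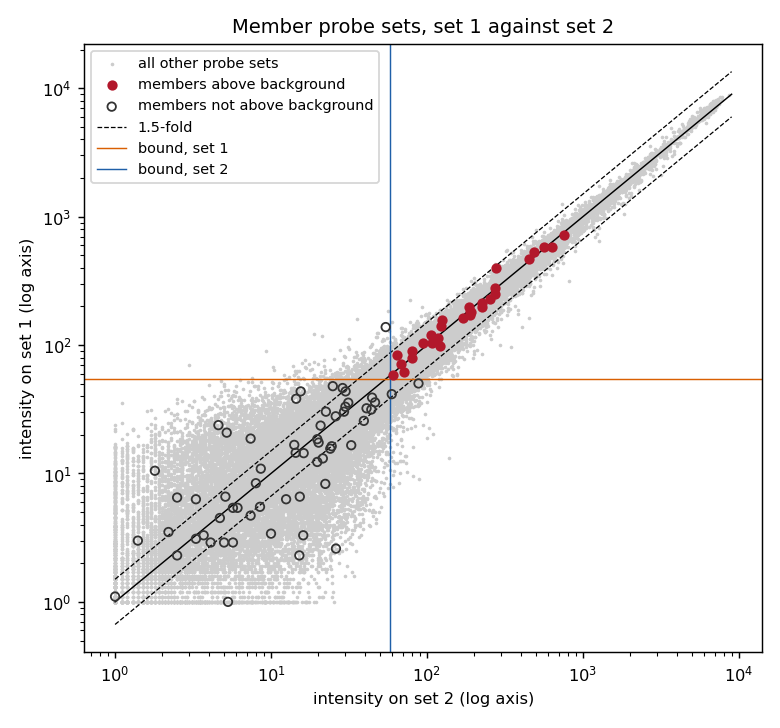
Intensity on set 1 (vertical, log axis) against set 2 (horizontal, log axis) for member probe sets above background (filled), members not above background (open) and all other probe sets (grey), with dashed lines at 1.5-fold and thin lines at the bounds. The 29 filled points follow the diagonal with an SD of 0.18 on the log2 scale, and the open points below the bounds scatter widely.

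Several paralogues lie side by side in the RefSeq gene order of the GRCm38.p6 assembly, and neighbours did not always share a call. Slc38a1, Slc38a2 and Slc38a4 are consecutive protein-coding genes on chromosome 15, and Slc38a1 and Slc38a2 were called while Slc38a4 was not. Slc36a3, Slc36a2 and Slc36a1 are consecutive on chromosome 11, where Slc36a1 alone was called. Slc43a1 and Slc43a3 on chromosome 2 have 1 protein-coding gene between them, and Slc43a3 was called.

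Promoter sequence was compared for the 31 member genes with an entry in the RefSeq promoter table of build GRCm38.p6. It holds windows of 250 bases before to 50 after a start. The called genes Slc1a5, Slc38a1, Slc7a4, Slc7a5 and Slc43a3 had no entry. The number of CG pairs in a window, a known feature of promoters active in many tissues, was counted in the window with most of them for each gene. This count was chosen after the calls were seen. It had a median of 26 (range 10 to 42) in 11 members above background and of 9.5 (range 1 to 32) in 20 members not above background. Over all genes on the arrays the medians were 23 in 6983 genes above background and 10 in 7469 genes not above background, so the medians of the members lay near those of the arrays as a whole. The groups overlapped, with Slc1a1 and Slc1a6 at 32 pairs among the genes not called and Slc38a7 at 10 among those called.

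The 120 bases before the start are shown for both heavy chains and for the neighbouring system A genes Slc38a2 and Slc38a4, as paralogues with opposite calls, picked after their values were seen. Capitals mark CG pairs and each sequence reads 5′ to 3′ on the strand of its gene. They lie at chr19:8713898-8714017 (minus strand) for Slc3a2, chr17:85028227-85028346 (plus strand) for Slc3a1, chr15:96699729-96699848 (minus strand) for Slc38a2 and chr15:97055957-97056076 (minus strand) for Slc38a4, which has 3 windows with 5 pairs each, all in GRCm38.p6.
Slc3a2: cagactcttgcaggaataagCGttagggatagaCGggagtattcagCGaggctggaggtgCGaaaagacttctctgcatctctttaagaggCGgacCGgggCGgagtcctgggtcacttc
Slc3a1: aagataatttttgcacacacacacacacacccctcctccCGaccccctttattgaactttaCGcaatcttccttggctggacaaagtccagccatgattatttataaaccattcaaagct
Slc38a2: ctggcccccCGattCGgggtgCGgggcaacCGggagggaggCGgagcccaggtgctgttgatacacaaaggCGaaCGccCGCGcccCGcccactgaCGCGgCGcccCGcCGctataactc
Slc38a4: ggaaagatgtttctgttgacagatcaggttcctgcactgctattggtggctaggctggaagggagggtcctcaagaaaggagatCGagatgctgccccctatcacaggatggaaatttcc

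These stretches hold 7 CG pairs in Slc3a2 and 2 in Slc3a1, and 15 in Slc38a2 and 1 in Slc38a4. In both comparisons the called paralogue had the more CG pairs, 15 against 7 over the whole window for Slc3a2 and Slc3a1, and 41 against 5 for Slc38a2 and Slc38a4. Among the Slc43 paralogues the counts were closer, 33 in Slc43a2, which was called, and 26 in Slc43a1, which was not. Slc38a7, called, and Slc38a5, not called, both had 10.

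**Figure D3:**
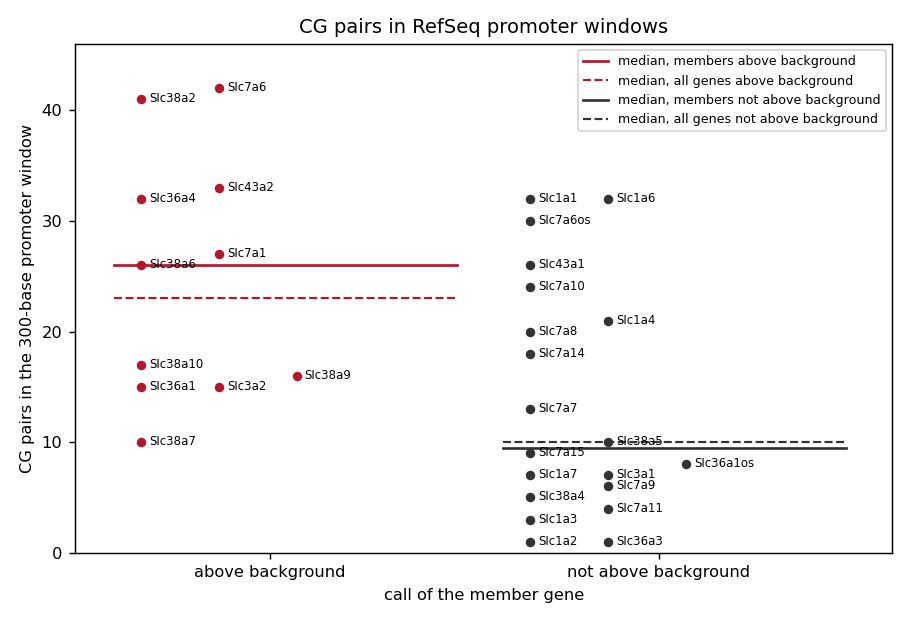
Number of CG pairs in the RefSeq promoter window with most of them, 1 point per member gene, for 11 members above background (left) and 20 not above background (right). Solid lines are the medians of the members, 26 and 9.5, and dashed lines those of all genes on the arrays, 23 and 10.

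A pair of motifs was searched on both strands of the windows. TGATGNAA, the core of the amino acid response element bound by Atf4 and its partners, was in 0 of 11 called members and in 3 of 20 not called (Slc7a11, Slc1a4 and Slc7a7), against 2.62% of called and 3.82% of uncalled genes on the arrays. By window it was in 3.97% of all 32851. CACGTG, the E-box bound by Myc and other factors, was in 2 of 11 called members (Slc36a1 and Slc38a7) and 5 of 20 not called, against 12.4% of called and 8.23% of uncalled genes on the arrays. By window it was in 7.15%. No member window held both motifs, so their matches did not overlap, and a match is a description of the window only. Sequence outside the windows was not searched, nor were Slc1a5, Slc7a5 and the other called genes without an entry. The lack of a match therefore does not show that a gene lacks the motif.

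Genes that act with these carriers were read from 5 lists, chosen with earlier results of these data known. Differences between the shares of these lists and that of all named genes were not tested. Of the genes by which mTORC1 senses amino acids, 29 of 32 were above background (90.6%), against 46.8% of all named genes. Of the sestrin genes, whose proteins restrain mTORC1, Sesn3 was at 2628.1 and 2124.8 and Sesn1 at 546.6 and 524.6. Sesn2 was at 52.7 and 76.3, over the bound on set 2 alone and so not called. The Ragulator anchor gene Lamtor1 was at 1423.5 and 1120.9 and Lamtor5 at 985.1 and 1354.3. The arginine-binding Castor1 was at 308.5 and 288.3. Besides Sesn2, Fnip2 at 18.1 and 13.8 and the GTPase gene Rragd at 27.9 and 23.9 were not above background.

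Of the amino acid starvation response genes 18 of 23 were above background (78.3%), against 46.8% of all named genes. Ddit4, an mTORC1 inhibitor, was at 2484.7 and 2251.1, the transcription factor gene Atf4 at 718.2 and 660.6 and the serine synthesis gene Phgdh at 505.4 and 491.8. Those not called were Atf3 at 34.0 and 51.8, Chac1 at 30.6 and 32.0, Eif2ak4 at 71.6 and 57.6, Nupr1 and, listed here too, Sesn2. Eif2ak4, the kinase GCN2 that senses uncharged transfer RNA, missed the bound on set 2 alone.

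Enzyme genes of glutamine, arginine, branched-chain amino acid and related metabolism were above background in 19 of 24 cases (79.2%), against 46.8% of all named genes. Glud1, glutamate dehydrogenase, was at 1122.1 and 1032.7, the aspartate aminotransferase gene Got2 at 958.1 and 1017.5 and Odc1, which starts polyamine synthesis, at 614.2 and 782.0. Both arginase genes were below the bound, Arg1 at 14.1 and 2.2 and Arg2 at 11.0 and 10.3. Ass1, which with Asl makes arginine from citrulline, was at 67.0 and 47.5 and so over the bound on set 1 alone. Bcat1, at 50.7 and 69.2 on its brightest probe set, was over the bound on set 2 alone. Gpt2 was not called either.

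Regulators of the carriers were called in 10 of 11 cases (90.9%), against 46.8% of all named genes. Ikbkb, a kinase of the NF-kappaB pathway, was at 1077.7 and 1020.1 and Bsg, a chaperone of lactate carriers, at 913.5 and 900.8. Myc, which drives nutrient uptake in activated T cells, was at 612.6 and 615.0. Nedd4l, a ubiquitin ligase, was at 45.7 and 60.1, over the bound on set 2 alone and so not called. Of 27 amino acid and peptide carriers of other families 11 were above background (40.7%), a share near that of the members. They included the mitochondrial aspartate and glutamate carrier Slc25a12 at 456.7 and 464.2, the mitochondrial serine carrier Sfxn1 at 363.8 and 340.5 and the taurine carrier Slc6a6 at 296.7 and 254.9. Among those not called were the peptide carriers Slc15a1 at 17.8 and 17.5, Slc15a2 at 35.1 and 58.5 and Slc15a3 at 48.2 and 51.0. Of these, Slc15a2 was over the bound on set 2 alone. Slc15a4, of the same family, was called, at 125.0 and 119.8 on 1 of its 2 probe sets.

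**Figure D4:**
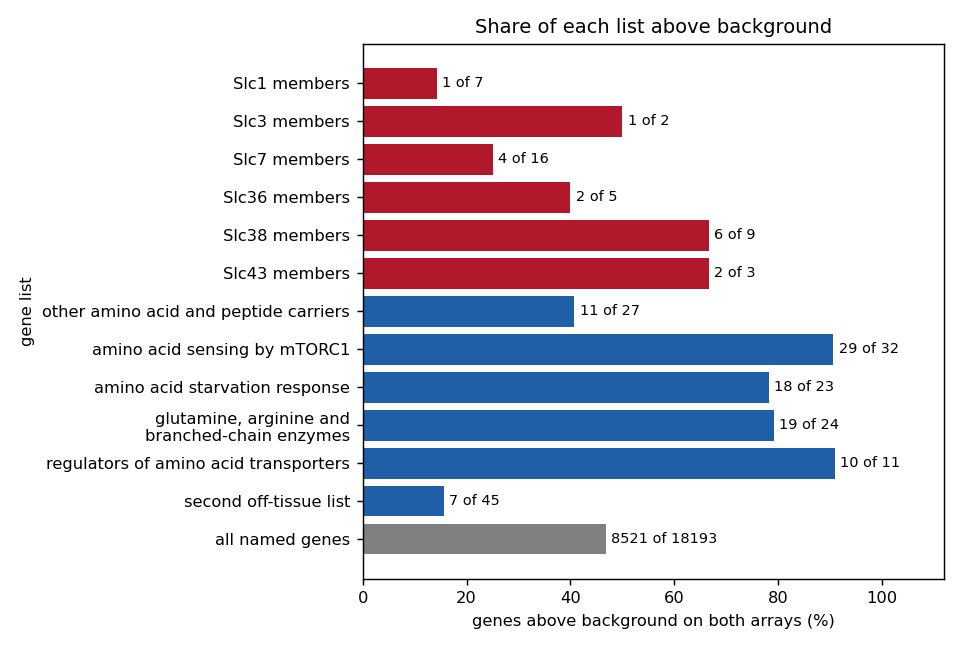
Percentage of measured genes above background on both arrays for the member families, for 5 related lists, for the second off-tissue list and for all named genes, with counts beside the bars. The Slc7 and Slc36 bars include Slc7a6os and Slc36a1os. The sensing, starvation, enzyme and regulator lists stand between 78.3% and 90.9%, the other carriers at 40.7% and all named genes at 46.8%.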

How the data were processed

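RNA of 1 group of mouse T cell blasts was hybridised to 2 arrays. The authors deposited 1 intensity value per probe set and array, on a linear scale as read from the values. The background correction, probe summary and scaling are not recorded in the labels. Each array had 45101 probe sets, and 64 manufacturer controls were left out. Gene names came from GEO's platform annotation, and all 89 member probe sets matched the GRCm38.p6 RefSeq gene table by Entrez identifier with 0 changes of symbol. From RefSeq tables of that assembly came the order of neighbouring genes and the promoter windows with their coordinates. The arrays' own files give no coordinates.

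The background bound was the 95th percentile of 56 probe sets of 41 off-tissue genes. Intensities under 1 were set to 1 before log2 was taken, and differences were centred on their median over called probe sets, -0.03 (set 1 minus set 2). A gene was described by its probe set of highest mean. Every member was named. From each related list up to 3 genes of highest intensity and up to 3 uncalled genes in alphabetical order were given with values. Genes named beyond these (Cd4, Castor1, Sesn1, Slc15a4, Nupr1, Asl, Bcat1 and Gpt2) were chosen after their values were seen. Members and lists were chosen with earlier results of these data known. Protein identities between paralogues were planned and not computed, as no protein sequences were used here. With 2 arrays of 1 group no test was possible, and precision is limited by having 2 arrays. Bound, normalization, probe set choice, gene level, floor, filter and centring were varied. Calculations used Python 3.11.15, numpy 2.4.6 and pandas 2.3.3. The bound, centring, fold limit and quantile normalization were tried on simulated data, and the gene calls and promoter counts were not.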

Additional observations from a re-analysis of the deposited data

How the results depend on the processing

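The 16 called genes and 29 called probe sets fell to 10 genes and 18 probe sets with the 99th percentile bound (100.7 on set 1 and 118.2 on set 2). In the other alternatives they ranged from 13 genes and 22 probe sets with the second off-tissue bound to 19 genes and 33 probe sets with the median of all probe sets as bound. On single arrays 16 genes were called on set 1 and 18 on set 2. Of the called genes 9 kept their call under all 9 alternatives and 7 lost it under at least 1 (Slc36a4, Slc38a6, Slc38a7, Slc43a2, Slc43a3, Slc7a4 and Slc7a5). Of the 26 uncalled genes 23 stayed uncalled and 3 were gained under at least 1 (Slc36a3, Slc38a3 and Slc7a3). The median difference between the arrays lay between -0.03 and 0.01. Probe sets past 1.5-fold numbered 0 in the main setting, 1 with the 90th percentile bound, 2 with the median of all probe sets as bound and 31 of 89 with no filter on dim probe sets, where low intensities vary widely. The alternative bound from a different version of the first off-tissue list was not run, as no other version was used here. No paired analysis was possible because the arrays form 1 group. Signal near background limits the calls of Slc36a4 and Slc7a5.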
